A study of Mus musculus with 8 samples.

Results

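Cells that held transcripts of both Mecom and Mpo were described in sorted neonatal mouse blood progenitors. Mecom encodes a zinc finger transcription factor of haematopoietic stem cells, and Mpo encodes myeloperoxidase, the haem enzyme of the primary granules of neutrophils and monocytes. A cell was counted as Mecom+ Mpo+ when it held at least 1 UMI (unique molecular identifier, 1 per captured transcript) of Mecom, at least 2 of Mpo, at least as many of Mpo as of Mecom, and none of Elane, Cd79a, Mcpt8 or Klf1, the last of which mark neutrophil, B cell, basophil and red cell progenitors. The rule was met by 452 of the 21227 cells kept from 3 tissues of P2 pups (2 days after birth), and the study held 37147 such cells in 6 libraries. The members were chosen by these UMI counts, so levels of the 6 genes of the rule are given as descriptions without a test.

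The sort took Epcr+ cells within the Lin- Sca-1+ Kit+ gate, which holds stem and early progenitor cells, and their RNA was sequenced with droplet 3' libraries. P2 liver, spleen and bone marrow gave 1 library each from a pool of 7 wild-type mice. A wild-type E19 library (about 19 days after fertilization) carries bone marrow in its title and fetal liver in its tissue field, so its tissue is not named here. Another pair of libraries, called tube 1 and tube 2, held marrow and spleen cells of 2 Tppp3CreER LSLTdTomato pups at P2, given tamoxifen at P0; in this line Cre active in cells that expressed Tppp3 switches on the red reporter tdTomato. The reporter-positive fraction of pup 1 was mixed with the reporter-negative fraction of pup 2 in tube 1, and the other way round in tube 2. The labels give no sex. The 3 P2 tissues, E19 and the pups were batches 1, 2 and 3.

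Haematopoietic stem cells are held in a slowly dividing, multipotent state by a small group of transcription factors, among them Hlf, Meis1, Mecom and Prdm16. When cells enter the granulocyte and monocyte lineages, the factors Cebpa and Spi1 (PU.1) switch on genes for the proteins stored in primary granules, such as myeloperoxidase, cathepsin G (Ctsg) and proteinase 3 (Prtn3), while stem cell genes such as Angpt1, which encodes the secreted Tie2 ligand angiopoietin 1, are shut down. Around birth, stem cells move from the liver to the spleen and marrow.

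Mecom lies on chromosome 3 (29951296 to 30548008, minus strand), Mpo on chromosome 11 (87793581 to 87804413, plus strand), Ctsg on chromosome 14 (56099881 to 56102574, minus strand) and Angpt1 on chromosome 15 (42424723 to 42676977, minus strand) of GRCm38. The promoters of Mpo and of 2 granule genes that were not part of the rule are shown. Mpo chose the cells, and the other 2 genes differed between classes split on it in the comparisons that follow. Each runs from 250 bases before to 50 bases after the RefSeq transcript start on GRCm38.p6 and is read 5' to 3' on the gene's strand. For Mpo and Prtn3 that start lies inside the annotated gene rather than at its first base. Capitals mark GAGGAA, a core of the sequences that PU.1 is known to bind, searched on both strands (TTCCTC on the other).

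Mpo chr11:87793534-87793833 (plus strand): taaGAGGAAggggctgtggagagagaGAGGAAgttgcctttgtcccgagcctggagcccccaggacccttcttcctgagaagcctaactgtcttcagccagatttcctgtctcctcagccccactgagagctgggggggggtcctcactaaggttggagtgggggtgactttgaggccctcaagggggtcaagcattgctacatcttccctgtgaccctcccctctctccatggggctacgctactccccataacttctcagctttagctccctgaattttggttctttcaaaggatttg
Prtn3 chr10:79879417-79879716 (plus strand): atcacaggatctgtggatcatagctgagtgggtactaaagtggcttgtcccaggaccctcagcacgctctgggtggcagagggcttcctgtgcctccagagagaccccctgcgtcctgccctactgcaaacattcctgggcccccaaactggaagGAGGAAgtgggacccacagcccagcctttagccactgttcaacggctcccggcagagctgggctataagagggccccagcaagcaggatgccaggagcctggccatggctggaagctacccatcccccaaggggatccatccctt
Ctsg chr14:56102525-56102824 (minus strand): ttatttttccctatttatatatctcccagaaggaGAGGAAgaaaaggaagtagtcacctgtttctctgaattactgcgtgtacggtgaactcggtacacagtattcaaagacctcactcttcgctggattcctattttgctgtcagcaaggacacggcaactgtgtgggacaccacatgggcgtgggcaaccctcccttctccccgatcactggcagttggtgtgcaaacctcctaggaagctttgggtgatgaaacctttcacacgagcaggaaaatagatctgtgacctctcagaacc

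The 6 letters occurred 2 times in the Mpo window and 1 time each in the windows of Prtn3 and Ctsg. They also occurred in 9289 of all 32851 windows of this length (28.3%), so a match is a description of the sequence only.

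Mecom+ Mpo+ cells were rare and differed in share between the tissues. They made up 24 of 5634 cells in P2 liver (0.426%, exact 95% binomial interval 0.273 to 0.633%), 182 of 9043 cells in P2 spleen (2.01%, 1.73 to 2.32%) and 246 of 6550 cells in P2 marrow (3.76%, 3.31 to 4.24%). Marrow held the highest share and liver the lowest, and the 3 intervals did not overlap. With every cell thinned to 5000 UMIs the shares were 0.328%, 1.54% and 3.22% in liver, spleen and marrow. The libraries also differed in how many Mecom+ cells they held. At that depth, 194 of 3967, 1387 of 6155 and 1338 of 5007 cells had Mecom and none of Elane, Cd79a, Mcpt8 and Klf1. Of these, 7.22%, 7.93% and 13.7% held at least 2 Mpo UMIs, so liver and spleen were close on this base. Each tissue is 1 library, and the intervals cover counting error only.

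The libraries that played no part in the rule held such cells too. They were 255 of 10725 cells in E19 (2.38%), 74 of 2722 in tube 1 (2.72%) and 41 of 2473 in tube 2 (1.66%), and the tubes were sequenced more deeply, with medians of 20120 and 20492 UMIs per cell against 6523 to 8275 in the other 4 libraries. Thinned to 5000 UMIs, the shares were 2.06% in E19, 1.39% in tube 1 and 1.13% in tube 2. By hashtag, the antibody tags that mark each pup and tissue, tdTomato-negative spleen held 26 of 1149 cells of pup 2 (2.26%, 1.48 to 3.30%) and 33 of 1675 of pup 1 (1.97%, 1.36 to 2.76%), against 46 of 1446 marrow cells of pup 2 (3.18%, 2.34 to 4.22%) and 6 of 584 marrow cells of pup 1 (1.03%, 0.378 to 2.22%). Spleen was thus below marrow in pup 2 and above it in pup 1, and the intervals of the 2 tissues overlapped within each pup.

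**Figure D1:**
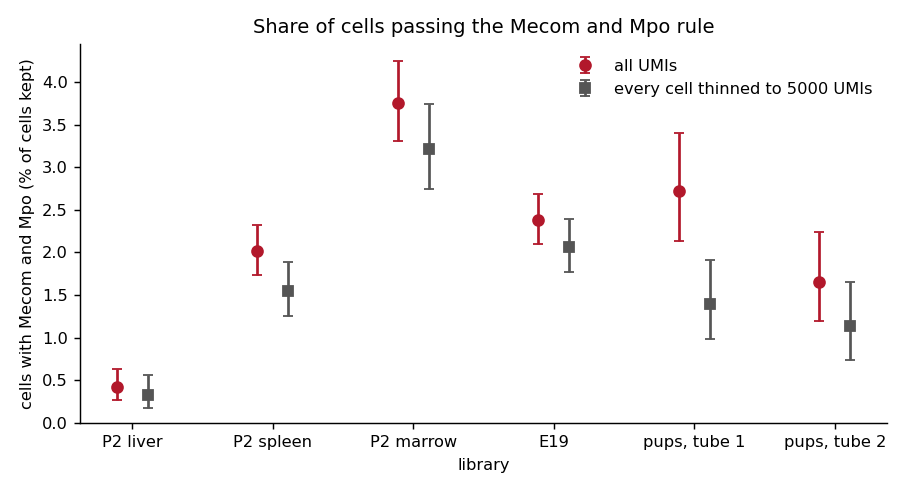
Share of cells kept (y axis, %) that met the Mecom and Mpo rule in each library (x axis), with all UMIs (circles) and with every cell thinned to 5000 UMIs (squares). Bars are exact 95% binomial intervals; the share ran from 0.426% in P2 liver to 3.76% in P2 marrow with all UMIs.

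The rule asked for at least as many Mpo as Mecom UMIs in a cell. The median cell held 4.5 Mpo UMIs in liver and 4 in both spleen and marrow, with maxima of 33, 52 and 42, and a median of 2 Mecom UMIs in liver and spleen and 1 in marrow. For comparison, Mecom-only cells were those with Mecom but no Mpo UMI (133 in liver, 1459 in spleen, 1346 in marrow), and Mpo-only cells those with at least 2 Mpo UMIs and no Mecom (144, 337 and 429 cells), both with the same filter and the same 4 genes at 0. Summed per library and given as CPM (UMIs scaled to the same total for every sum), Mecom was at 127, 165 and 166 CPM in Mecom+ Mpo+ cells of liver, spleen and marrow, against 1289, 860.0 and 919.6 CPM in Mecom-only cells. Mpo was at 566, 579 and 639 CPM in Mecom+ Mpo+ cells, against 684, 763 and 928 CPM in Mpo-only cells. Both genes served in the rule, so these levels are a description.

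The label of these cells as stem-myeloid intermediates was checked on Ctsg and Angpt1, which were not in the rule. At 5000 UMIs a cell, Angpt1 was detected in 79.2%, 84.4% and 86.7% of Mecom+ Mpo+ cells of liver, spleen and marrow, and Ctsg in 41.7%, 34.1% and 36.7%. Most cells thus carried the stem-side marker, and most carried no Ctsg UMI at this depth. Angpt1 was detected in 86.4%, 88.9% and 89.2% of Mecom-only cells and in 29.5%, 67.6% and 58.0% of Mpo-only cells. Ctsg was detected in 5.93%, 5.35% and 9.84% of Mecom-only cells and in 41.1%, 47.6% and 54.2% of Mpo-only cells. Most Mecom-only cells in each tissue, and most Mpo-only cells in spleen and marrow, thus carried Angpt1 too. A Ctsg UMI and a Hlf UMI in the same cell were seen in 3 of 24 (12.5%), 24 of 173 (13.9%) and 23 of 240 (9.58%) Mecom+ Mpo+ cells, against 5.93%, 4.06% and 6.67% of Mecom-only cells and 5.43%, 5.50% and 7.21% of Mpo-only cells in liver, spleen and marrow. Co-detection of Ctsg and Hlf in the same cell was thus a minority. Its intervals overlapped those of both Mecom-only and Mpo-only cells in marrow and liver. Ctsg with Angpt1, the pair of the label, was seen in 33.3%, 25.4% and 30.0% of Mecom+ Mpo+ cells of liver, spleen and marrow. This pair was seen in 5.93%, 5.05% and 8.31% of Mecom-only cells and in 14.7%, 32.4% and 27.9% of Mpo-only cells. Its intervals lay above those of Mecom-only cells and overlapped those of Mpo-only cells in each tissue.

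Transcripts from other cells in the droplets were gauged in B-lineage cells with at least 2 Cd79a UMIs, at 5000 UMIs a cell. At least 2 Mpo UMIs were seen in 7.22%, 7.93% and 13.7% of Mecom+ cells with the 4 genes at 0 in liver, spleen and marrow, against 24.9%, 3.64% and 5.27% of B-lineage cells. The B-lineage cells were not held to the other genes at 0. In Mecom+ cells without that filter the shares were 16.5%, 9.72% and 17.3%. In liver the background was the higher on either base, so the liver share alone cannot be read as co-expression from this measure. With Elane, Mcpt8 and Klf1 also at 0 in the B-lineage cells, a check chosen after the values were seen, the background was 1.62%, 2.55% and 3.32%, below the share in Mecom+ cells in each tissue. Mecom itself was seen in 7.69%, 23.0% and 25.7% of cells with at least 2 Mpo UMIs and the 4 genes at 0, against 1.71%, 10.9% and 7.03% of B-lineage cells in liver, spleen and marrow. Ctsg reached 30.8%, 8.14% and 11.9% of B-lineage cells, against 41.7%, 34.1% and 36.7% of Mecom+ Mpo+ cells given above, and Ctsg together with Hlf 1.09%, 1.28% and 1.54%. Median depths before thinning were 13772, 11323 and 10377 UMIs in Mecom+ Mpo+ cells and 8099, 7006 and 8138 UMIs in B-lineage cells.

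A droplet that caught 2 cells can also carry both genes. Scrublet marked 1 of the Mecom+ Mpo+ cells in liver (4.17%), 7 in spleen (3.85%) and 23 in marrow (9.35%), against 3.76%, 3.98% and 2.53% of Mecom-only cells, 3.47%, 4.45% and 1.40% of Mpo-only cells and 5.59%, 8.64% and 7.63% of all cells kept. The marrow share lay above those of both classes there. Of cells with Xist or a Y-linked transcript, both kinds were seen in 0 of 20, 5 of 123 (4.07%) and 8 of 192 (4.17%) Mecom+ Mpo+ cells, against 3.87%, 3.31% and 3.26% of all cells in liver, spleen and marrow. The count of 0 in liver allows a share of up to 16.8%. In Mecom-only cells the shares were 3.19%, 2.27% and 0.727%, and in Mpo-only cells 0.980%, 0.866% and 1.38%, so the point values of spleen and marrow Mecom+ Mpo+ cells lay above those of either class alone. The interval cleared that of Mecom-only cells in marrow (1.82 to 8.04% against 0.236 to 1.69%) and overlapped it in spleen. Of the tube cells, 1 of 74 and 0 of 41 Mecom+ Mpo+ cells had no single leading hashtag. With the cells marked by Scrublet removed, 2200 genes were higher and 1791 lower than in Mecom-only cells, and 308 and 279 than in Mpo-only cells, against 2297 and 1814, and 298 and 229, with them.

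Against Mecom-only cells, Mecom+ Mpo+ cells were higher in granule protein and early myeloid genes and lower in stem cell transcription factors, in all 3 tissues. Counts were summed per library and class, and the 9 sums were fitted together in edgeR's quasi-likelihood model with library as a block. At a Benjamini-Hochberg adjusted p under 0.05, 2297 of 11170 genes tested were higher (20.6%) and 1814 lower (16.2%). The 3 libraries come from 1 pool of mice. With the library block, these p-values measure how far the class differences vary between libraries of 3 tissues, not between animals. Any gene that travels with Mpo or Mecom had to differ between classes split on them, so the calls describe the split. Without the library block 1120 genes were higher and 1049 lower, without marrow 1070 and 751, and without spleen 1178 and 1064.

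Ctsg, a serine protease of primary granules, was at 263, 251 and 202 CPM in Mecom+ Mpo+ cells of liver, spleen and marrow, against 12.5, 11.6 and 23.2 CPM in Mecom-only cells. Every Mecom+ Mpo+ sum lay above every Mecom-only sum, and the log2 fold change was 3.95 ± 0.175 (SE; edgeR adjusted p = 3.64e-13). Prtn3, another protease gene of the same granules, was at 572, 520.4 and 603 CPM, against 185, 182 and 241 CPM, a log2 fold change of 1.60 ± 0.0645 (edgeR adjusted p = 8.87e-14). Plac8, a small cysteine-rich protein of myeloid cells, was at 1299.9, 828 and 946 CPM in Mecom+ Mpo+ cells and at 253, 236 and 273 CPM in Mecom-only cells. Of the 20 genes on the list of primary granule genes, 19 were tested, 14 were higher and 2 lower, with a median log2 fold change of 1.27 against -0.0039 over all genes tested. Beside the proteases, Cst7 (cystatin F, an inhibitor of lysosomal cathepsins) had a log2 fold change of 2.96, Hp (haptoglobin) 3.24, Clec12a (an inhibitory myeloid lectin) 2.53 and Nkg7 1.81. The 2 that were lower were Gstm1 (-1.01), a glutathione transferase, and Cd63 (-0.72), a membrane protein of granules and endosomes. With Mecom-only cells matched 1 to 1 on UMIs, 12 of 19 were higher and 0 lower, against 8.58% and 8.29% of the 10554 genes tested in that fit.

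**Figure D2:**
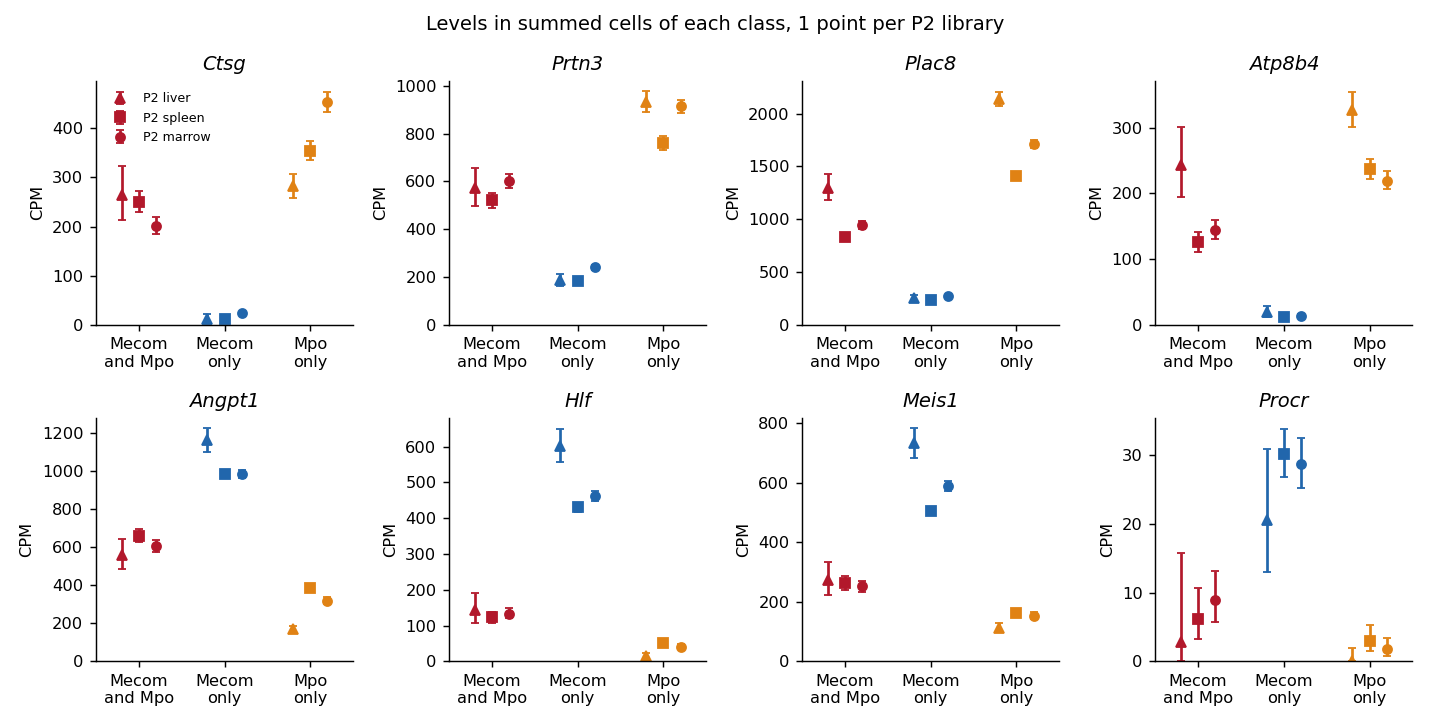
CPM (y axes) of 8 genes in summed cells of each class (x axes), 1 point per P2 library, with exact 95% Poisson intervals; triangles are liver, squares spleen, circles marrow. Ctsg, Prtn3, Plac8 and Atp8b4 in Mecom and Mpo cells lay above Mecom-only and below Mpo-only cells in each tissue, and Angpt1, Hlf, Meis1 and Procr lay below Mecom-only and above Mpo-only cells.

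By the fixed rule on size, the genes with the largest rise over Mecom-only cells included Rab44, Cpa3, Ctsg, Atp8b4, Ccl9, Cst7, Anxa3, Ap3s1 and Plac8. Rab44, a large Rab GTPase of granule-bearing cells, was at 39.6, 35.4 and 32.4 CPM in Mecom+ Mpo+ cells and at 4.46, 2.02 and 2.34 CPM in Mecom-only cells (log2 fold change 4.03 ± 0.214, edgeR adjusted p = 7.6e-12). Atp8b4, a phospholipid flippase, was at 244, 125 and 145 CPM, against 18.7, 12.1 and 13.6 CPM (3.60 ± 0.109, adjusted p = 8.97e-16). In both genes the lowest Mecom+ Mpo+ sum was above the highest Mecom-only sum. Cpa3, a mast cell carboxypeptidase, was at 5.66, 36.8 and 30.6 CPM in Mecom+ Mpo+ cells of liver, spleen and marrow, against 2.67, 2.32 and 2.1 CPM, with the wider gap in spleen and marrow. Cpa3 stood with Hdc (log2 fold change 3.26, histamine synthesis), Ms4a2 (2.19, a chain of the IgE receptor) and Srgn (0.19, a granule proteoglycan that the granule list also holds) among the 8 mast cell and basophil genes, of which 4 were tested and all 4 were higher. Fcer1a, the ligand-binding chain of that receptor, had no UMI in these cells in any P2 tissue.

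Regulators of myeloid fate were higher as well. Of 15 myeloid transcription factor genes tested, 8 were higher and 0 lower than in Mecom-only cells, with a median log2 fold change of 0.38. Cebpa, the factor that starts granulocyte and monocyte fate, was at 8.5, 11 and 14.4 CPM in Mecom+ Mpo+ cells of liver, spleen and marrow, against 1.78, 2.52 and 2.1 CPM (2.57 ± 0.295, edgeR adjusted p = 6.29e-07). Irf8, a factor of monocytes and dendritic cells, was at 105, 41.1 and 49.4 CPM, against 27.6, 25.4 and 20.7 CPM, with its highest level in liver. Spi1 differed little (0.34, adjusted p = 0.00102), and Runx1, Gfi1 and Cebpe did not pass the test. Myc (1.27) and the cell cycle kinase gene Cdk6 (1.47 ± 0.0628, adjusted p = 2.61e-13), which was chosen after its values were seen, also rose.

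The cytokine receptor list was mixed. Of 16 genes tested, 5 were higher and 3 lower, with a median log2 fold change of -0.02, against 20.6% and 16.2% of all genes tested. Il6ra (1.34), Csf3r (0.69, the G-CSF receptor), Csf2rb (0.71), Il3ra (0.65) and Csf1r (2.01, the M-CSF receptor) were the 5 higher, and Csf2rb2 (-1.45) and Ifnar1 (-0.53) were among the 3 lower.

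Stem cell transcription factors were lower in Mecom+ Mpo+ cells, in 16 of 19 genes tested, and 1 was higher; the median log2 fold change was -0.59. Hlf was at 144, 123 and 133 CPM in Mecom+ Mpo+ cells of liver, spleen and marrow, against 602, 430.5 and 462 CPM in Mecom-only cells (-1.71 ± 0.151, edgeR adjusted p = 1.78e-08). Mllt3, a chromatin reader that maintains stem cells, was at 65.1, 73.6 and 73.7 CPM, against 441, 284 and 313 CPM, and Prdm16 at 5.66, 20.1 and 20.3 CPM, against 105, 66.5 and 75.7 CPM. The groups did not overlap in any of the 3 genes. Meis1 (-1.02), Hoxa10 (-1.39), Hoxa9 (-0.75), Gata2 (-0.70) and Erg (-0.52) fell less, and Hmga2, a chromatin protein of fetal stem cells, was slightly higher (0.28, adjusted p = 0.0188). With Mecom-only cells matched 1 to 1 on UMIs, 8 of the 19 factors were lower, against 8.29% of all genes tested in that fit.

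The surface genes did not move as a block. Of 18 stem cell surface and niche genes tested, 12 were lower and 2 higher, with a median log2 fold change of -0.58. Procr, which encodes the Epcr of the sort, was at 2.83, 6.21 and 8.85 CPM in Mecom+ Mpo+ cells of liver, spleen and marrow, against 20.5, 30.1 and 28.6 CPM in Mecom-only cells (-1.81 ± 0.242, edgeR adjusted p = 4.47e-06). Ly6a, the Sca-1 of the sort, had a log2 fold change of -1.94, Slamf1 (CD150) -1.97 and Esam -2.50, while Kit, the third antigen of the sort, was at 164, 171 and 156 CPM against 221, 208 and 178 CPM and did not pass the test (-0.12, adjusted p = 0.288). Angpt1 fell by a smaller amount, to 561, 659.9 and 605 CPM, against 1159.9, 981 and 983 CPM in Mecom-only cells (-0.62 ± 0.137, adjusted p = 0.00119). The 2 surface genes that were higher were Cd48 (1.18), which is low on long-term stem cells, and Cd34 (0.47). Flt3, a receptor of multipotent and lymphoid-primed progenitors, was at 207, 152 and 152 CPM against 210.4, 168 and 182 CPM and did not pass the test (adjusted p = 0.836).

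The largest falls against Mecom-only cells included Ndnf, Dlg2, Meg3, Fam155a, Pf4, Wfdc2, Bank1, Trpc6 and Abcg3. Ndnf, a secreted factor first described in neurons, had 0 UMIs in all Mecom+ Mpo+ cells, against 365 UMIs (18.6 CPM) in Mecom-only cells, at least 32.0-fold lower on a floor of 3 counts over the class. Fam155a, a subunit of a neuronal channel complex, was at 11.3, 14.3 and 26.9 CPM in liver, spleen and marrow, against 671, 293 and 327 CPM (-3.88 ± 0.143, edgeR adjusted p = 1.9e-14). Bank1, a B cell scaffold protein, was at 8.5, 9.56 and 8.48 CPM, against 178, 108 and 123 CPM. Platelet genes were among the strongest falls. Pf4 (platelet factor 4) was at 0, 3.82 and 4.42 CPM, against 99.0, 68.0 and 41.2 CPM (-3.71 ± 0.309, adjusted p = 7.54e-09), and Vwf had a log2 fold change of -3.41. Of 9 megakaryocyte and platelet genes tested 7 were lower and 0 higher, with a median of -1.39, and 7 of 9 were also lower with cells matched on UMIs. Cdkn1c, a cell cycle inhibitor of resting stem cells, was at 2.83, 8.12 and 6.64 CPM, against 42.8, 33.1 and 32.9 CPM, and 10 of 15 quiescence-associated genes were lower and 1, Cdkn1a, higher.

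Genes of growth and biosynthesis were higher in Mecom+ Mpo+ cells, and these counts moved with the depth of the cells compared. The median cell had 13772, 11105 and 10333.5 UMIs in Mecom+ Mpo+ cells of liver, spleen and marrow, against 7722, 6224 and 5791 UMIs in Mecom-only cells. Of 20 ribosome biogenesis and Myc target genes tested 20 were higher (median log2 fold change 0.67), of 22 oxidative phosphorylation genes 21 (0.50), of 16 genes of protein synthesis in the endoplasmic reticulum 14 (0.55), and of 30 S phase genes 28 (0.47). With Mecom-only cells matched on UMIs, 17 of 20, 17 of 22, 10 of 16 and 16 of 30 genes of these lists were higher and 0 of each were lower, against 8.58% and 8.29% of all genes in that fit. The G2/M list turned round. It had 24 of 36 genes higher and 0 lower with all cells (median 0.31), 0 higher and 25 lower with cells matched on UMIs (median -0.39), and 0 higher and 3 lower with every cell thinned to 5000 UMIs (median -0.05), where 7.15% of all genes were higher and 5.93% lower. Summed over the list at 5000 UMIs a cell, the median Mecom+ Mpo+ cell held 24.5, 24 and 24 G2/M UMIs in liver, spleen and marrow, against 8, 20 and 21 in Mecom-only cells and 20, 27 and 25 in Mpo-only cells. Of 13 immediate early genes, 9 were lower with all cells and 1 with cells matched on UMIs.

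**Figure D3:**
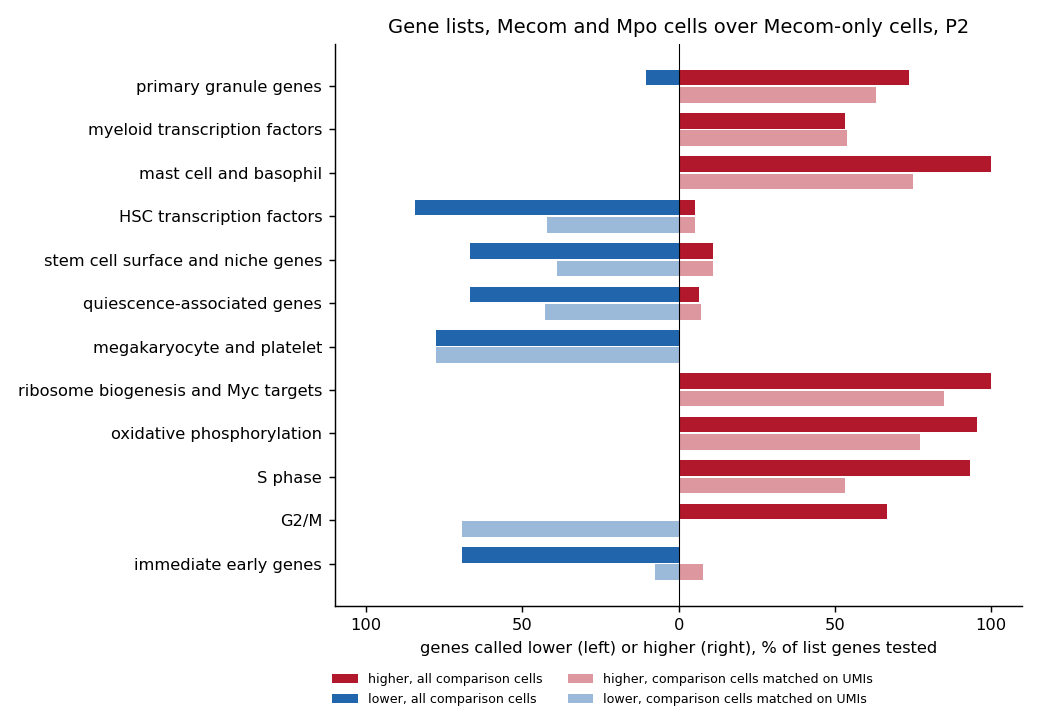
Share of each gene list called higher (right) or lower (left) in Mecom and Mpo cells than in Mecom-only cells of the P2 tissues (x axis, % of list genes tested; y axis, list). Dark bars use all comparison cells and pale bars comparison cells matched on UMIs; the G2/M list has 24 of 36 genes higher in the first and 25 of 36 lower in the second.

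Against Mpo-only cells the differences were fewer and ran the other way, with stem cell genes higher and monocyte, dendritic and granule genes lower. In the same fit, 298 of 11170 genes were higher (2.67%) and 229 lower (2.05%) than in Mpo-only cells, whose median depth of 12416.5, 10379 and 10281 UMIs in liver, spleen and marrow was close to that of Mecom+ Mpo+ cells. This comparison and the one with Mecom-only cells share the Mecom+ Mpo+ sums. Any gene that travels with Mecom had to differ between classes split on it, so these calls too describe the split. Without the library block 53 genes were higher and 24 lower, without marrow 53 and 54, without spleen 153 and 117, and without liver 374 and 401.

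Hlf was at 144, 123 and 133 CPM in Mecom+ Mpo+ cells of liver, spleen and marrow, against 15.7, 52.5 and 41.5 CPM in Mpo-only cells (log2 fold change 1.68 ± 0.199, edgeR adjusted p = 1.87e-05). Angpt1 was at 561, 659.9 and 605 CPM, against 168, 383 and 319 CPM (1.00 ± 0.143, adjusted p = 0.000133). Both genes were higher in every Mecom+ Mpo+ sum than in any Mpo-only sum. Of 19 stem cell transcription factors tested 11 were higher and 0 lower, with a median of 0.45, among them Prdm16 (1.52), Meis1 (0.80), Mllt3 (0.77) and Erg (0.51). Of 18 surface and niche genes 10 were higher and 0 lower, with a median of 0.91. They included Procr (1.87 ± 0.422, edgeR adjusted p = 0.0106), Ly6a (0.83) and Kit (0.50), which encode the antigens of the positive sort, and Fgd5 (1.30). The list of the 10 largest rises held Hlf, Prkg1 (a cGMP-dependent kinase), Emcn (the sialoglycoprotein endomucin), Csgalnact1 (a chondroitin sulfate enzyme), Igf2bp2 (an RNA-binding protein of fetal cells), Mycn, Plxdc2, Ptgs1 (cyclooxygenase 1), Pcdh7 and Myct1. Csgalnact1 was at 59.5, 52.6 and 47.9 CPM in Mecom+ Mpo+ cells and at 15.7, 18.4 and 17.6 CPM in Mpo-only cells (1.51 ± 0.138, adjusted p = 6.91e-07), and against Mecom-only cells it did not pass the test (-0.22, adjusted p = 0.106). Without marrow, Myct1 and Ptgs1 no longer passed the test (adjusted p = 0.244 and 0.0676).

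Granule genes were lower than in Mpo-only cells, in 9 of 19 tested with 0 higher and a median of -0.64. Ctsg was at 263, 251 and 202 CPM in Mecom+ Mpo+ cells of liver, spleen and marrow, against 282, 355 and 453 CPM (-0.76 ± 0.13, edgeR adjusted p = 0.000973), so its 2 levels were close in liver and furthest apart in marrow. Prtn3 had a log2 fold change of -0.65, Plac8 -0.83 and Clec12a -1.90, while Nkg7 (0.01, adjusted p = 0.987) and Cebpa (-0.57, adjusted p = 0.201) did not pass the test. Of 15 myeloid transcription factors 8 were lower and 0 higher. Irf8 was at 105, 41.1 and 49.4 CPM in Mecom+ Mpo+ cells, against 471, 119.8 and 139 CPM in Mpo-only cells (-1.72 ± 0.174, edgeR adjusted p = 2.43e-06). Of 11 monocyte and dendritic genes tested 7 were lower and 0 higher, among them Ccr2 (-1.94), F13a1 (-1.88) and Csf1r (-1.36), and of 14 lymphoid-primed genes 7 were lower, among them Dntt (-1.93), Il7r (-1.89) and Flt3 (-0.26). Of 4 mast cell and basophil genes 3 were lower. S phase genes (0 of 30) and ribosome biogenesis genes (0 of 20) gave no call in edgeR, where 1871 of all genes were at an unadjusted p under 0.05, and the G2/M list gave 1 of 36, lower.

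The 10 largest falls were in Prg2, Stfa1, Cox6a2, Cmah, Apba1, Lgals3, Ly86, Mpeg1, Nrp1 and Olfm1. Prg2, the major basic protein of eosinophil granules, was at 0, 0.956 and 1.84 CPM in Mecom+ Mpo+ cells of liver, spleen and marrow, against 178, 58.7 and 40.4 CPM in Mpo-only cells (-5.41 ± 0.3, edgeR adjusted p = 2.48e-10). Cox6a2, a subunit of cytochrome c oxidase, was at 2.83, 5.73 and 4.06 CPM, against 45.9, 36.5 and 38.4 CPM. Stfa1 (a cathepsin inhibitor), Lgals3 (galectin 3), Ly86, Mpeg1 (the pore-forming perforin 2), Nrp1, Olfm1, Apba1 and Prg2 were highest in liver Mpo-only cells. Lgals3 did not pass the test without marrow or without spleen (adjusted p = 0.0647 and 0.0756), nor Olfm1 without marrow (0.0676). In the same liver Mpo-only cells the monocyte and dendritic list summed to 1633 CPM and the late neutrophil list to 1190.2 CPM, against 425 and 22.7 CPM in liver Mecom+ Mpo+ cells, and their part in these falls was not tested.

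Markers of other cell types in Mecom+ Mpo+ cells differed widely by list. Among the lists given here, marrow sums ran from 4.06 CPM for late neutrophil genes to 726 CPM for erythroid genes. The late neutrophil list summed to 22.7, 8.12 and 4.06 CPM over 10 genes in liver, spleen and marrow, with Ngp, Chil3, Retnlg, Mmp8 and Cd177 at 0 in all 3 tissues. The stromal, endothelial and hepatocyte list summed to 85.0, 87.4 and 75.6 CPM, with 9, 5 and 8 of 10 genes at 0, Col1a1, Col1a2, Col3a1, Dcn and Alb among them in each tissue. The T and NK list summed to 113, 81.7 and 94.8 CPM, with 6, 4 and 5 of 10 genes at 0, Cd3e, Cd3g and Il2rb among them in each tissue. Its Trbc2, a T cell receptor constant gene, was at 34.0, 9.08 and 17.7 CPM and its Nkg7, which the granule list also holds, at 70.8, 65.9 and 71.9 CPM. B cell genes summed to 45.3, 67.9 and 86.3 CPM, with 7, 3 and 0 of 10 genes at 0. Erythroid genes summed to 255, 438 and 726 CPM, with 4, 0 and 0 of 14 genes at 0. Fewer such cells and less RNA per cell cannot be told apart in a sum.

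Some genes lay beyond both classes. The 8 with the largest smaller rise over both Mecom-only and Mpo-only cells were Slc22a3, Mc5r, Slco3a1, Csf3r, C77080, Rad18, Tespa1 and Cd48. Slc22a3, an organic cation transporter, was at 102, 87.9 and 79.3 CPM in Mecom+ Mpo+ cells of liver, spleen and marrow, against 38.3, 35.1 and 40.3 CPM in Mecom-only cells and 21.6, 61.3 and 49.1 CPM in Mpo-only cells (log2 fold changes 1.33 and 0.76, edgeR adjusted p = 1.6e-06 and 0.00949). Csf3r, the receptor for the granulocyte growth factor G-CSF, was at 51, 43 and 41.3 CPM, against 25, 28.5 and 31.4 CPM and 17.3, 28.8 and 28.9 CPM (0.69 and 0.63, adjusted p = 0.00057 and 0.0189). Cd48, a surface ligand of the SLAM family, was at 201, 227 and 221 CPM, against 104, 109.8 and 108 CPM and 142, 178 and 185 CPM (1.18 and 0.31). Genes entered this set only if they were highest in Mecom+ Mpo+ cells in every tissue. Against Mpo-only cells Mc5r, C77080 and Rad18 passed narrowly (edgeR adjusted p = 0.0486, 0.0423 and 0.0371). Below both classes were Ahnak, Hdac9, Tox, Trbc2, Slc8a1, Dctn5, Tnfrsf13b and Tpd52. Ahnak, a giant scaffold protein, was at 17.0, 4.3 and 6.64 CPM, against 73.1, 30.9 and 36.3 CPM in Mecom-only cells and 67.0, 17.1 and 16.5 CPM in Mpo-only cells (-2.34 and -1.79). Tox, a nuclear factor of lymphoid development, was at 34.0, 44.9 and 48.7 CPM, against 121, 83.6 and 92.4 CPM and 152, 63.2 and 75.1 CPM.

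The place of the cells between the classes was described on genes chosen without them. Of the genes tested, 359 were called and more than 2-fold higher, and 1035 called and more than 2-fold lower, in Mpo-only than in Mecom-only cells. Over the 359 genes the median log2 difference from Mecom-only cells was 0.86, 0.74 and 0.74 in Mecom+ Mpo+ cells of liver, spleen and marrow, against 1.54, 1.19 and 1.20 in Mpo-only cells. Over the 1035 genes it was -1.54, -1.10 and -1.11 in Mecom+ Mpo+ cells, against -1.89, -1.51 and -1.60 in Mpo-only cells. No test was made, since the same cells give both distances. Mecom and Mpo, which chose the cells, lay between the 2 classes as well. Genes that travel with them thus had to fall between, so the place describes the split.

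The Mecom+ Mpo+ cells were not uniform, and their other genes changed with the number of Mpo UMIs. In the 3 tissues together, 233 cells had 2 to 4 Mpo UMIs, 122 had 5 to 9, 68 had 10 to 19 and 29 had 20 or more, with median depths of 8894, 12051, 13796.5 and 15921 UMIs. Along these bins Ctsg was at 54.5, 157, 379 and 862 CPM and Prtn3 at 308, 438, 882 and 1446 CPM. Both granule genes were higher in each bin than in the one before it, with intervals that did not overlap. Irf8 was at 27.0, 53.1, 62.1 and 114 CPM, Cebpa at 6.86, 13.4, 15.5 and 28.9 CPM and Spi1 at 133, 166, 186 and 222 CPM. Hlf was at 165, 135, 83.8 and 55.9 CPM and Meis1 at 319, 266, 183 and 119.5 CPM, so both stem cell factors were lower in each bin than in the one before. Angpt1 was at 687, 774, 433 and 291 CPM and was highest in the second bin, as it was in liver (524, 900.0, 291 and 295 CPM) and spleen (649, 882, 436 and 283 CPM), while in marrow it was highest in the first (738, 655, 441 and 296 CPM). Flt3 followed Hlf, at 185, 151, 138 and 79.0 CPM, while Cdk6 stayed between 648 and 813 CPM, Cd48 between 185 and 234 CPM and Mllt3 between 57.9 and 81.0 CPM. Mecom was at 176, 158, 166 and 116 CPM. Within tissues, Ctsg was at 14.6, 135, 426 and 856 CPM along the bins in liver, where each of the upper 2 bins held 3 cells, at 44.3, 154, 535 and 1194 CPM in spleen and at 67.7, 162, 290.1 and 656 CPM in marrow. Mpo chose the cells and sets the bins, and depth moves with it, so the trend is given without a test.

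**Figure D4:**
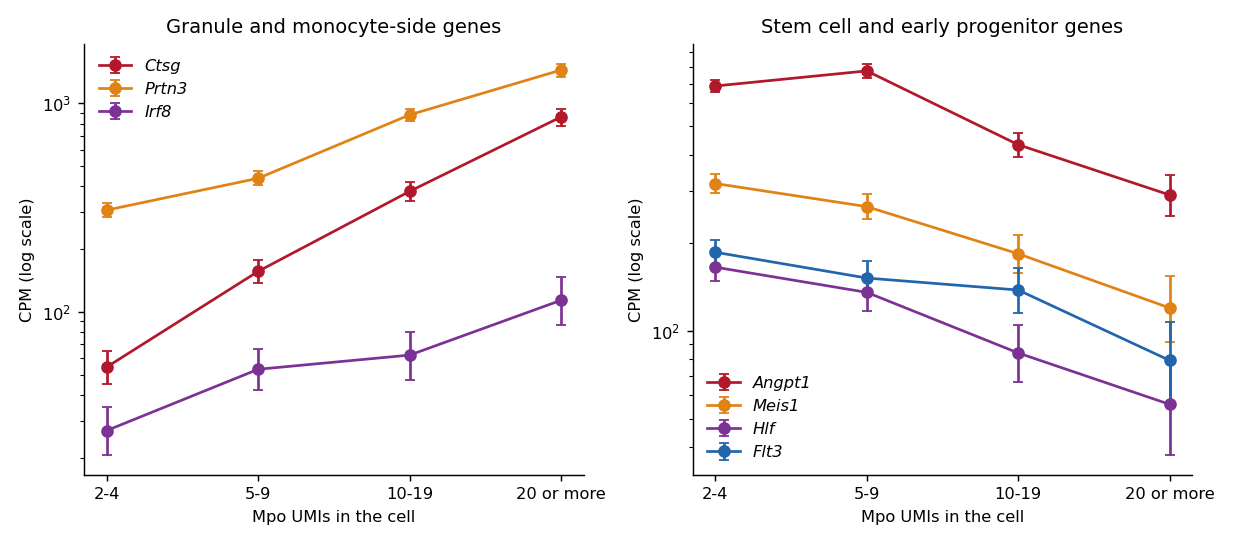
CPM (y axes, log scale) of granule and monocyte-side genes (left) and of stem cell and early progenitor genes (right) in Mecom and Mpo cells binned by Mpo UMIs (x axes), 3 P2 tissues together, with exact 95% Poisson intervals. Ctsg ran from 54.5 to 862 CPM and Hlf from 165 to 55.9 CPM from the lowest to the highest bin.

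At the edge of the rule, cells just inside (2 Mpo UMIs; 6 in liver, 42 in spleen, 61 in marrow) had Ctsg at 14.4, 22.2 and 16.2 CPM, against 20.2, 9.36 and 31.0 CPM in cells just outside (Mecom+ with 1 Mpo UMI; 43, 273 and 328 cells). Hlf was at 144, 170.0 and 236 CPM just inside, against 429, 340 and 314 CPM just outside. Angpt1 was at 345, 609 and 707 CPM just inside, against 945, 1017 and 961 CPM just outside. Ctsg thus did not separate the sides of the threshold in one direction, while Hlf and Angpt1 were lower just inside it in each tissue. Mecom was at 129, 155 and 175 CPM just inside, against 655, 565 and 643 CPM just outside. It could not exceed the Mpo count just inside and had no upper bound just outside. Genes that travel with Mecom thus had to differ between these groups, so the Hlf and Angpt1 values do not describe the Mpo threshold alone.

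The same rule was then applied to E19 and both tubes, whose cells had no part in it. Mecom+ Mpo+ cells differed from Mecom-only cells there too, with granule genes higher and stem cell factors lower, but Ctsg was far lower than in the P2 tissues of batch 1. In 7 sums of class and library, 2627 of 11834 genes were higher (22.2%) and 2319 lower (19.6%) than in Mecom-only cells by the same edgeR test; without the library block the counts were 252 and 295. Of the genes called higher in the P2 tissues, 1886 were also called higher here, 82.1% of the P2 calls and 71.8% of the calls here, and 6 were called lower. Of those called lower, 1329 were shared, 73.3% of the P2 calls and 57.3% of the calls here, and 3 were called higher. The 2 sets of libraries share no cells. Both were split on Mecom and Mpo in the same way, so genes that travel with either had to recur. Depth differed between the classes here too. The median Mecom+ Mpo+ cell had 8293, 32090 and 37497 UMIs in E19, tube 1 and tube 2, against 5847, 18191 and 19712 UMIs in Mecom-only cells. With cells matched on UMIs, 1413 genes were higher and 1149 lower here, and the overlap was not taken in that setting.

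Ctsg was at 20.3, 12.2 and 53.1 CPM in Mecom+ Mpo+ cells of E19, tube 1 and tube 2, against 0.386, 0.0805 and 0.482 CPM in Mecom-only cells (log2 fold change 6.53 ± 0.349, edgeR adjusted p = 8.19e-08). A Ctsg UMI at 5000 UMIs a cell was seen in 3.02%, 2.78% and 12.2% of the Mecom+ Mpo+ cells. Tube 2 also held late neutrophil transcripts, which summed to 424 CPM in its Mecom+ Mpo+ cells against 188 CPM in its Mecom-only cells, and to 4.34 and 105 CPM in those of tube 1. Their part in its Ctsg level was not tested. Prtn3 was at 243, 99.9 and 93.7 CPM, against 176, 50.4 and 43.4 CPM (0.93 ± 0.11, adjusted p = 2.63e-05). Hlf was at 342, 317 and 370.0 CPM, against 808, 723 and 893 CPM (-1.07 ± 0.0496, adjusted p = 2.79e-08). Angpt1 was at 824, 763 and 1144 CPM, against 1209, 1036 and 1287 CPM, a fall of a smaller size that passed the test (-0.23 ± 0.0636, adjusted p = 0.0125). In all 4 genes each library moved the same way.

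**Figure D5:**
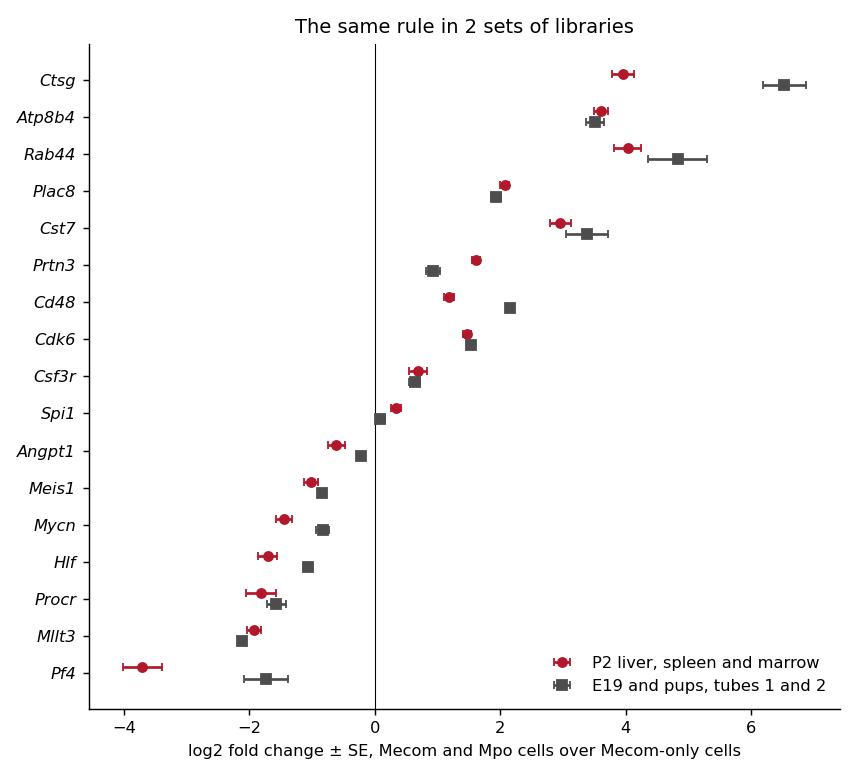
Log2 fold change ± SE (x axis) of selected genes (y axis) in Mecom and Mpo cells over Mecom-only cells in P2 liver, spleen and marrow (circles) and in E19 and both tubes (squares). All genes drawn had the same sign in both sets, and Ctsg ranged furthest, at 3.95 in the P2 tissues and 6.53 in the other libraries. The difference between the sets was not tested. The genes were picked without a fixed rule and both sets were split on Mecom and Mpo, so the shared sign is a description. Not every list kept its median, and that of T and NK genes was -0.98 in the P2 tissues and 0.08 in the other libraries.

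The largest rises in E19 and the tubes included Ctsg, Atp8b4, Ubash3a, Cd244a, Dnajc6, Adgrg3, Spns3, Nkg7 and Slc22a3. Atp8b4 was at 25.1, 67.7 and 72.4 CPM in Mecom+ Mpo+ cells of E19, tube 1 and tube 2, against 2.16, 7.43 and 6.95 CPM in Mecom-only cells. Cd48 was at 210.2, 267 and 240.5 CPM, against 53.8, 67.8 and 58.9 CPM (log2 fold change 2.15 ± 0.0595, edgeR adjusted p = 5.79e-10), a level close to the 201 to 227 CPM of the P2 tissues. The largest falls included Nav3, Igf2, Igf1, Sparc, Pdgfc, Col1a2, Col1a1, Mmp16 and Ndnf. Nav3, Igf2 and Sparc had 2 UMIs each in these Mecom+ Mpo+ cells, and Nav3 was lower by a ratio of 61.8 (counting interval 17.1 to 511). Igf2, Sparc, Col1a2 and Col1a1 no longer passed the test without the library block. In Mecom-only cells of E19, tube 1 and tube 2, Col1a1 was at 0.0454, 1.02 and 141 CPM, Col1a2 at 0.977, 3.08 and 113 CPM and Sparc at 1.79, 3.19 and 60.7 CPM, each highest in tube 2. The stromal, endothelial and hepatocyte list summed to 93.4, 84.4 and 438 CPM in these Mecom-only cells, and 4 of its 6 genes tested were lower in Mecom+ Mpo+ cells, with a median of -5.22; the part of tube 2 stromal transcripts in these falls was not tested. Of 19 stem cell transcription factors tested 15 were lower and 1, Gfi1b (0.97), higher, and of 17 granule genes 9 were higher and 2 lower. Of 14 myeloid transcription factors 4 were higher, Cebpa among them (2.83), and 3 lower, with a median log2 fold change of 0.03. Over all genes tested 22.2% were higher and 19.6% lower, so the myeloid factors as a list lay near those shares. The G2/M list again turned with depth, with 36 of 36 genes higher with all cells (median log2 fold change 0.80) and 2 higher and 10 lower with cells matched on UMIs (median -0.19), where 11.9% of all genes were higher and 9.68% lower.

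Mpo-only cells were scarce outside the P2 tissues, at 119 in E19 and 10 and 6 in the tubes, so E19 alone entered that comparison. The classes were split on Mecom in E19 as well, so genes that travel with Mecom had to differ. There 13 of 11834 genes were higher (0.11%) and 24 lower (0.203%) in Mecom+ Mpo+ cells. The Mpo-only arm is 1 sum with no spread of its own and was taken to vary like the other classes, and without the library block 0 genes passed in edgeR (723 at an unadjusted p under 0.05), while DESeq2 with the block called 47. Angpt1 was at 824 CPM in E19 Mecom+ Mpo+ cells and at 394 CPM in E19 Mpo-only cells (log2 fold change 1.13), and Hlf at 342 and 171 CPM (0.98). Both passed the test in the fit with the block. So did Csgalnact1 (1.28), Plxdc2 (1.20) and Erg (0.72) among the genes higher, and Cybb, Ebf1, Clec12a, Ctss, Fam155a and Tox among those lower. Erg, Clec12a, Csf1r and Cybb did not pass the test without tube 2.

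Between the P2 tissues, Mecom+ Mpo+ cells were compared as 3 single libraries, with no test. Among genes with at least 50 UMIs in 1 of the 2 libraries, 76 of 6905 were at least 2-fold higher (1.1%) and 230 at least 2-fold lower (3.33%) in liver than in marrow, where the 24 liver cells gave few UMIs per gene. Between spleen and marrow the counts were 29 (0.418%) and 14 (0.202%) of 6933 genes. None of the 12 and 13 granule genes with that many UMIs reached 2-fold in these comparisons. H2-Ab1, an MHC class II chain, was at 102 CPM in liver and 19.9 CPM in marrow (5.12-fold, counting interval 3.26 to 7.95), and was at 59.7 and 10.0 CPM in Mecom-only cells and at 301 and 16.1 CPM in Mpo-only cells of the same tissues. Haemoglobin transcripts ran the other way. Hbb-bs was at 5.66 CPM in liver and 34.4 CPM in spleen, against 183 CPM in marrow, and ran the same way in Mecom-only cells (13.4 and 91.6 CPM, against 272 CPM) but not in Mpo-only cells (176 and 80.0 CPM, against 21.9 CPM). In spleen Tomm7 (628 against 267 CPM), Ndufa3 (218 against 95.1 CPM) and Romo1 (328 against 149 CPM), small mitochondrial proteins, were higher than in marrow, and each was also higher in spleen Mecom-only cells (460, 199 and 248 CPM, against 198, 86.0 and 131 CPM). Jun, an immediate early gene, was at 26.3 CPM in spleen, against 67.1 CPM in marrow, and at 55.6 and 119 CPM in Mecom-only cells. H2-Ab1, Hbb-bs, Tomm7, Ndufa3, Romo1 and Jun thus differed in the same direction in Mecom-only cells of these libraries.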

How the data were processed

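Whole-number counts of UMIs for 32285 genes were deposited for each barcode. Per the file headers, Cell Ranger 7.0.0 made the P2 tables, 7.1.0 the E19 table and 8.0.1 those of the tubes; version 7.0.0 and mm10 stand in the notes of the submitters. Hashtag reference samples were not used. Libraries held 56010320 to 87254828 UMIs in 2838 to 11323 barcodes and shared 0 to 34 barcodes. Barcodes entered the analysis from 2000 UMIs and 1000 genes upward, with a mitochondrial share no higher than 10% (2473 to 10725 per library).

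The Mecom+ Mpo+ cells and all gene lists were chosen with earlier results of these data known. UMIs were summed per library and class (at least 20 cells) and tested with edgeR 4.0.16 in R 4.3.3 (glmQLFit, glmQLFTest, TMM, filterByExpr), with library as the block because classes of 1 library come from the same mice, and Benjamini-Hochberg adjustment over all genes tested without the 6 genes of the rule. DESeq2 1.42.0 was an alternative. Named genes were called, moved the same way in every library, reached 20 CPM in the higher class and were neither mitochondrial, ribosomal protein nor unnamed model genes; the 10 largest in each direction were taken, and 8 beyond both classes and 8 per tissue comparison. A few genes that met this rule are not reported here. Alternatives were another normalization, no low-count filter, no block, each library left out, marked doublets removed, comparison cells matched on UMIs, all cells thinned and a stricter rule. Doublets were marked with Scrublet (scanpy 1.11.5) at 0.8% of barcodes per 1000 barcodes and left in. Binomial and Poisson intervals (scipy 1.17.1) are exact, at 95%, and cover counting error only. The fits were tested on simulated data.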

Additional observations from a re-analysis of the deposited data

How the results depend on the processing

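Sums of 24 liver cells and 1 library per tissue set the limits here: 3 P2 libraries of 1 pool of mice stand in for replicates, and low genes in liver rest on few UMIs. Of the named genes, 846 values kept their direction and their call over the alternatives run, 61 kept the direction and lost the call, and 1 turned; of the list medians 402 kept their sign and 6 turned. The causes of these shifts were not tested.

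Genes higher and lower against Mecom-only cells in the P2 tissues, 2297 and 1814, were 1120 and 1049 with no replicate block, that is without pairing sums of the same library, 906 and 875 with cells matched on UMIs, 632 and 524 with cells thinned to 5000 UMIs and 1445 and 1005 with a stricter rule (at least 2 Mecom and 4 Mpo UMIs). DESeq2 gave 1136 lower. Leaving out 1 library gave 1070 to 2612 higher and 751 to 2113 lower. Against Mpo-only cells, 298 and 229 were 155 and 113 in DESeq2, 53 and 24 with no replicate block, 144 and 130 matched on UMIs, 164 and 138 thinned and 122 and 96 with the stricter rule; with no filter on low counts 405 were lower, and leaving out 1 library gave 53 to 374 and 54 to 401. Mpo-only over Mecom-only cells gave 3193 genes higher, and 2098 with no replicate block.

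In E19 and the tubes, 2627 and 2319 against Mecom-only cells were 1728 and 1213 in DESeq2, 252 and 295 with no replicate block, 1413 and 1149 matched on UMIs and 690 and 534 thinned; leaving out 1 library gave 2133 to 2568 and 1756 to 2263. The 13 and 24 against Mpo-only cells were 0 and 0 with no replicate block (723 at an unadjusted p under 0.05 in edgeR, and 47 called by DESeq2 with the block), 69 and 106 with no filter, 25 and 47 matched on UMIs and 21 and 59 with the stricter rule; 28 were higher when thinned, 48 lower with marked doublets removed, and leaving out 1 library gave 12 to 34 and 22 to 57. A fit of only these 2 classes, or without E19, was not run, since E19 holds the single Mpo-only sum.

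The share of Mecom+ Mpo+ cells was 1.54% in spleen and 3.22% in marrow at 5000 UMIs, and 0.0776% in liver, 0.661% in spleen and 0.884% in marrow at 2500 UMIs. It was 0.177%, 0.630% and 1.15% with the stricter rule and 1.97%, 3.56% and 7.56% where Elane, Cd79a, Mcpt8 and Klf1 need not be 0. At a minimum of 20 UMIs, 241 genes were 2-fold higher and 538 lower in liver than in marrow, and 56 and 88 in spleen; with marked doublets removed 42 were higher in liver and 7 lower in spleen. Signs turned for Hbb-bt against Mpo-only cells in E19 with no replicate block (-0.44); for the T and NK median when thinned, 0.52 against Mecom-only and 0.0133 against Mpo-only cells in the P2 tissues; for the G2/M median, -0.39 matched on UMIs and -0.0531 thinned in the P2 tissues and -0.19 matched on UMIs in the other libraries; and for the erythroid median over E19 and the tubes without E19, which ran from -1.29 to 0.0555 with 1 library left out.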

Other observations

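Lists outside the main comparisons were described in the same fits. Against Mecom-only cells of the P2 tissues, 9 of 15 interferon response and MHC genes tested were lower in Mecom+ Mpo+ cells and 2 higher, with a median log2 fold change of -0.54, and in E19 and the tubes 10 of 14 were lower and 3 higher. Ifit1, an interferon-induced RNA sensor, had a log2 fold change of -1.51 and the MHC class I gene H2-K1 of -0.55 in the P2 tissues, while Psmb8, a subunit of the immunoproteasome, was higher (0.78). With Mecom-only cells matched on UMIs, 4 of 14 were lower and 1 higher in the P2 tissues, against 8.29% and 8.58% of all genes tested in that fit.

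The lymphoid-primed list was mixed. Of 14 genes tested in the P2 tissues, 5 were higher than in Mecom-only cells, among them Satb1 (0.56) and Cd52 (0.69), and 3 lower, Mef2c (-0.43), Lsp1 (-0.33) and Ccr9 (-1.81). With cells matched on UMIs 1 was higher and 5 lower. Of 7 fetal genes tested, Hmga2, Arid3a (0.33) and Igf2bp3 (0.54) were higher and Igf2bp2 (-1.45) and the imprinted RNA H19 (-3.51) lower.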
